A study of Papio cynocephalus with 12 samples.

Results

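Counts from Stampy-G, an unspliced mapping to the genome that tolerates mismatches, were compared with counts from TopHat2, a spliced mapping to the same genome, in the blood of 12 yellow baboons (Papio cynocephalus). The comparison covered every transcript row with a mean count of 10 or more over the animals in either table, which were 12583 of 41970 rows. The animals were adult colony-bred males, each sampled at baseline, immediately before inoculation with Streptococcus pneumoniae, so no animal had been treated and the 2 groups are 2 mappings of the same reads. The labels name mononuclear cells of peripheral blood, but by the paper's methods blood went into PAXgene tubes and globin RNA was depleted. The reads were 50 bases long, in pairs, and the reference was human (hg19), because baboon reads were mapped across species. Every difference below is therefore a difference in where the same reads were placed and counted, not a difference in RNA. No source used here pairs the RefSeq accessions of the rows with gene names, so cell type markers could not be looked up and neither name of the tissue could be checked.

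Most human genes are broken into exons, and a read from spliced RNA that crosses an exon junction has no continuous match in the genome. An unspliced aligner such as Stampy cannot open a gap as long as an intron. It can place such a read only where it fits within the mismatches and small gaps allowed. Such places can include processed pseudogenes, intron-less copies of a spliced RNA. Stampy looks up short seeds that may themselves hold a mismatch, which lets it place reads that have diverged from the reference. TopHat2 first aligns reads with Bowtie2 to the transcripts of the annotation it is given, then whole reads to the genome, and then tries to split what remains across introns. When several places fit equally well, Stampy keeps 1 of them at random and TopHat2 reports several. The counting program, htseq-count, gives a read to a transcript only when its position fits 1 transcript best. The methods differ in splicing, in mismatch tolerance, in the use of annotation and in the handling of repeats at once, so their parts in a difference cannot be told apart from these 2 tables.

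Of the rows compared, 11069 had an NM accession (protein-coding messenger RNA) and 1514 an NR accession (non-coding RNA), from 34587 and 7383 such rows in all. A further feature of the names is a number added to some accessions, whose meaning the sources used here do not give. It was present in 142 of the rows compared, 103 NM and 39 NR. Both tables passed the minimum in 10350 rows, TopHat2 alone in 1135 and Stampy-G alone in 1098. A row that passed with 1 table alone had to differ between them, so counts over these rows are descriptions of the choice. The lowest mean inside the minimum was 10.0 and the highest outside it was 9.92. Median log2 fold changes of TopHat2 over Stampy-G were alike on its sides, at -0.24 over the 210 rows with a higher mean of 10 to 11 and -0.24 over the 233 rows at 9 to 10. Total counts per animal were 12886962 to 17230407 with Stampy-G and 12046242 to 15256309 with TopHat2, and animal 11 stood apart in the rows with the most counts, as given beside the results it touches.

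Stampy-G counted more reads in these rows, although TopHat2 counted more in many of them. Per 100 read pairs after quality control, Stampy-G gave from 35.6 to 49.6 counts over the animals (median 42.4, mean 42.6 ± 3.69, SD, n = 12). TopHat2 gave from 33.2 to 44.1 (median 38.6, mean 39.1 ± 3.21, SD, n = 12). The ranges overlapped between the methods, but Stampy-G was higher in 12 of 12 animals. The difference within an animal was 2.31 to 5.68 counts per 100 read pairs (median 3.46, mean 3.55 ± 0.828, SD, n = 12; two-sided exact paired permutation test, p = 0.000488, the smallest p that 12 pairs allow). Much of it lay in the 10 rows with the highest mean count, without which it was 1.24 ± 0.466 (SD, range 0.486 to 1.89), with Stampy-G still the higher in every one of the 12 animals (two-sided exact paired permutation p = 0.000488).

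This difference was the balance of 2 larger movements in opposite directions. Summed in each animal over the rows higher with TopHat2 in that animal, its excess was 4.96 ± 0.737 counts per 100 read pairs (SD, n = 12, range 3.94 to 6.30). Summed in the same way over the rows higher with Stampy-G, the excess was 8.51 ± 1.26 (SD, n = 12, range 7.03 to 12.0). By the mean over animals, 3976 rows were higher with TopHat2 and 8607 with Stampy-G. The excess of these means lay in few rows in either direction. The 10 rows with the largest TopHat2 excess held 36.22% of it and the 100 largest held 73.3%, so that 25 rows made up 50% of it. For Stampy-G the 10 largest rows held 37.7%, the 100 largest held 56.3%, and 50% of the excess lay in 53 rows.

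**Figure D1:**
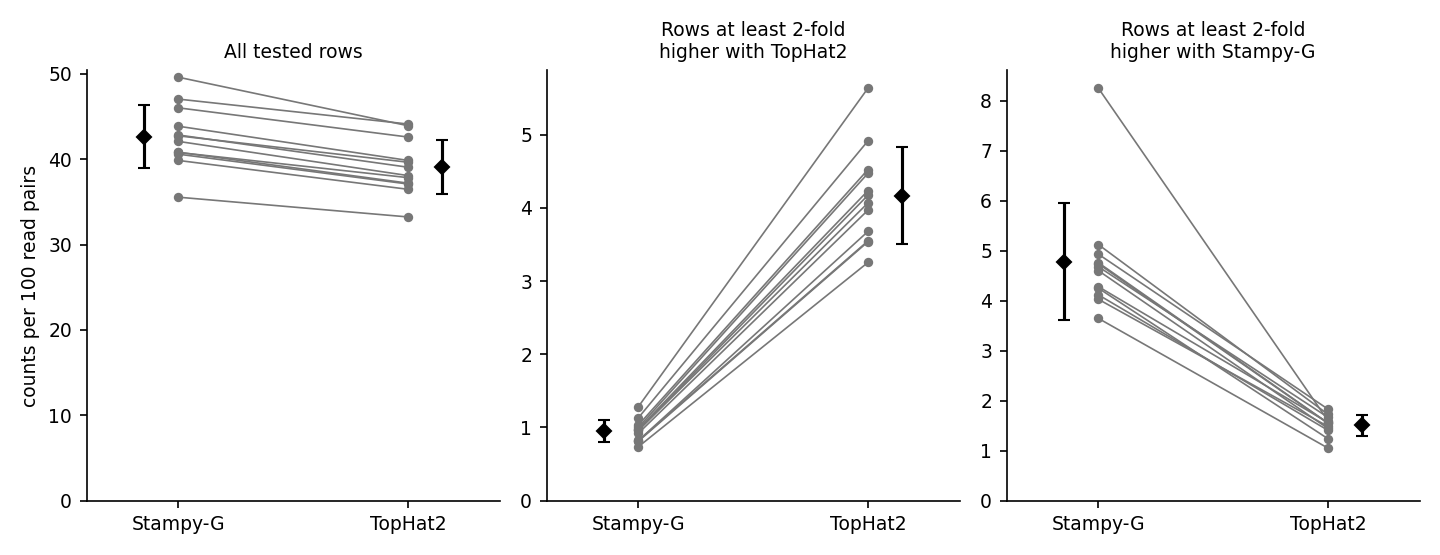
Counts per 100 read pairs after quality control with Stampy-G and TopHat2, with 1 line per animal (n = 12) and diamonds for the mean ± SD, over all 12583 rows (left), over the 1711 rows at least 2-fold higher with TopHat2 (middle) and over the 1576 rows at least 2-fold higher with Stampy-G (right). Every line falls in the left panel, and the single high point in the right panel, at 8.26 with Stampy-G, is animal 11. The direction in the middle and right panels is fixed by the choice of rows.

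Row by row, more transcripts were higher with Stampy-G, mostly by little, while similar numbers differed by 2-fold or more in each direction. With edgeR's quasi-likelihood test, the animal as a block and the same number of read pairs as library size for both methods, 3332 rows (26.5%) were higher with TopHat2 and 7080 (56.3%) were higher with Stampy-G at an adjusted p under 0.05 (Benjamini-Hochberg over the 12583 rows). TopHat2 thus had 32.0% of the calls. This split depended on the scaling, because the median log2 fold change of TopHat2 over Stampy-G was -0.148 over all rows (quartiles -0.475 and 0.188), and TMM scaling set it to 0.00096. With TMM the calls were 4957 and 4921, or 50.2% higher with TopHat2, and with column totals as library size 4642 and 5246, or 47.0%. Because both columns of an animal hold the same reads, many small differences repeated evenly from animal to animal. The tool does not let p fall below that of a Poisson test, which kept 1333 rows from being called, and the standard errors below do not include this bound. The coefficient of variation between the mappings after the animal block was 0.0160. A stricter call was therefore used below, an adjusted p under 0.05 with a fitted fold of at least 2 and the same direction in 12 of 12 animals. It took 1711 rows (13.6%) higher with TopHat2 and 1576 rows (12.5%) higher with Stampy-G.

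These calls came unevenly from rows that passed the minimum in both tables and rows that passed in 1. Among the 10350 rows with a mean of 10 or more in both tables, 684 (6.61%) were at least 2-fold higher with TopHat2 and 765 (7.39%) with Stampy-G. Of the 1135 rows that passed with TopHat2 alone, 1027 (90.5%) were called higher with it, and of the 1098 that passed with Stampy-G alone, 811 (73.9%) were called higher with Stampy-G. The sizes of the differences depended on the minimum too. The median log2 fold change over the 684 and 765 rows was 1.75 (quartiles 1.30 and 2.55) and -1.50 (quartiles -2.08 and -1.18). With the rows that passed in 1 table included, it was 3.47 (quartiles 1.83 and 5.62) over the rows called higher with TopHat2 and -2.01 (quartiles -3.36 and -1.39) over those called higher with Stampy-G. These medians stayed at 3.47 and -2.01 with the 41 and 37 rows at 0 in the other method set to their bounds. They could not have moved, because with a mean of 10 or more each such row has a bound beyond the median. Over the 9296 other rows it was -0.152.

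**Figure D2:**
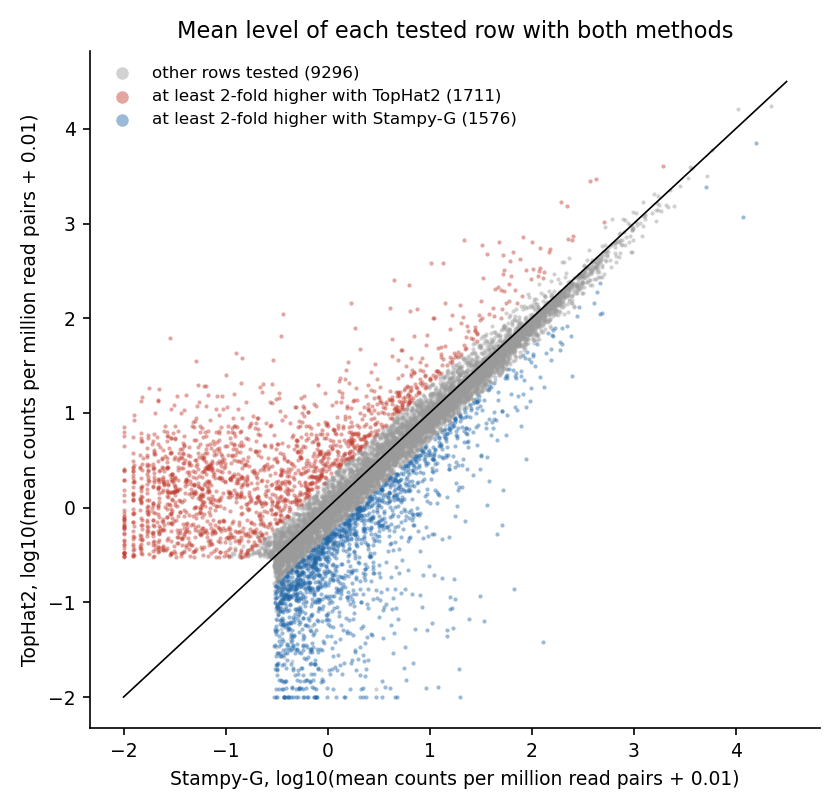
Mean level of each of the 12583 rows with Stampy-G (horizontal) and TopHat2 (vertical), as log10 of CPM, counts per 1000000 read pairs, plus 0.01, averaged over 12 animals, with the line of equal levels. Most of the 9296 grey rows lie just below the line, where the median log2 fold change was -0.152. The 1711 red rows reach far to the left of the line at low Stampy-G levels, and the 1576 blue rows lie below it, most densely at low levels.

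By the median over rows, the sizes of these differences were much the same in every animal. The stricter call required the same direction in every animal and a low adjusted p, which favours rows with an even ratio. Evenness in the called rows is therefore partly fixed by their choice, and a median over rows can hide differences within single rows. The median log2 ratio of TopHat2 to Stampy-G per animal ran from 3.07 to 3.32 over the rows at least 2-fold higher with TopHat2 and from -1.998 to -1.931 over the rows at least 2-fold higher with Stampy-G. Over the other rows it ran from -0.158 to -0.134. For rows with a mean of 100 or more in both tables, the SD of the log2 ratio over animals had a median of 0.112 in 230 rows higher with TopHat2, 0.123 in 218 rows higher with Stampy-G and 0.038 in 5619 other rows. The level itself varied more between animals than this ratio. The median SD of the log2 level in the rows higher with TopHat2 was 0.406 with Stampy-G and 0.332 with TopHat2, and in the rows higher with Stampy-G it was 0.387 and 0.400.

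Differences between animals in the level of a transcript were therefore mostly shared between the mappings, though less so in rows that differed. Over the 12 animals the median Pearson correlation of the 2 methods' levels was 0.964 in the 230 rows higher with TopHat2, 0.956 in the 218 rows higher with Stampy-G and 0.996 in the 5619 other rows. A correlation above 0.9 was present in 73.5%, 78.9% and 97.2% of these rows, and below 0.5 in 9, 4 and 9 rows. These correlations are descriptions, since the points share their reads and library size. The lower of the 2 mean counts was also smaller in the rows that differed, with medians of 295, 248 and 561, and its part in the lower correlations was not tested.

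The row with the largest excess with TopHat2 was among the most abundant of all and differed by less than 2-fold. Its counts were 91617 to 1699280 (median 262893) with Stampy-G and 144490 to 2545704 (median 405591.5) with TopHat2. The ranges overlapped widely. Animal 11 was far above the others with either method, the next highest animal having 421090 with Stampy-G and 631504 with TopHat2. TopHat2 was higher in 12 of 12 animals, with a log2 fold change of 0.63 ± 0.010 (SE, n = 12). The rows ranked 2 and 3 differed much more. The row ranked 2 had 10440 to 21032 counts with Stampy-G (median 14697) and 74355 to 132827 with TopHat2 (median 103601), a log2 fold change of 2.79 ± 0.016 (SE, n = 12) with no overlap between the methods. The row ranked 3 had 8156 to 24338 counts (median 11145.5) and 63818 to 189865 (median 85229.5), and its log2 fold change was 2.95 ± 0.019 (SE, n = 12). In both of these rows the lowest animal with TopHat2 was above the highest with Stampy-G.

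The mean levels of these rows in the 4 other tables, made from the same reads, showed different patterns. Bowtie2-G is Bowtie2 run unspliced on the genome, GSNAP is another spliced aligner on the genome, and Bowtie2 and Stampy without the G were run on the human transcript sequences, where junctions need no splicing. Levels are given as CPM, counts per 1000000 read pairs. The row ranked 2 had a level of 425 CPM with Stampy-G, 396 with Bowtie2-G and 362 with GSNAP, beside 2932 with TopHat2, 2932 with Bowtie2 and 2950 with Stampy. The mappings that used transcript sequences or their annotation as a first target were thus alike for it, and so were the other 3. The row ranked 5 was instead highest with TopHat2 alone, at 1674 CPM, beside 194 with Stampy-G, 421 with Bowtie2-G, 412 with GSNAP, 507 with Bowtie2 and 376 with Stampy. The row ranked 7 was low with both Stampy mappings, at 21.7 CPM with Stampy-G and 147 with Stampy, beside 672 with TopHat2, 415 with Bowtie2-G, 481 with GSNAP and 737 with Bowtie2. The row ranked 8 had 82.1 with Stampy-G and 717 with TopHat2, and it was close to absent with GSNAP, at 1.26.

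The row with the largest excess with Stampy-G had an average of 11827 CPM with it and 1178 with TopHat2. Its counts were 113335 to 1860773 (median 295442) with Stampy-G and 9361 to 191847 (median 20392) with TopHat2, and the log2 fold change was -3.56 ± 0.165 (SE, n = 12). The ranges overlapped through animal 11 alone, whose TopHat2 count of 191847 was the highest of its table, the next being 72174. In the other tables the row had 10092 CPM with Bowtie2-G, 11485 with Bowtie2, 13831 with Stampy and 2602 with GSNAP, so it was low only with the 2 spliced aligners. Animal 11 also had 1860773 counts in this row with Stampy-G, where the next highest animal had 448981.

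The row ranked 2 for Stampy-G carried an added number and was the only row of its accession. It had 331726 to 774144 counts with Stampy-G (median 569549.5) and 138204 to 352903 with TopHat2 (median 245257.5), with a log2 fold change of -1.17 ± 0.026 (SE, n = 12). The 2 ranges overlapped slightly, although Stampy-G was higher in 12 of 12 animals. Its mean level was 15712 CPM with Stampy-G, 7035 with TopHat2 and 8295 with Bowtie2-G, and it was far lower at 1942 with GSNAP, 1851 with Bowtie2 and 1090 with Stampy. The genome mappings without splicing thus gave the most counts here and the transcript mappings among the fewest. Of the 10 rows with the largest Stampy-G excess, 3 differed by at least 2-fold, and the log2 fold changes of the rows ranked 5 to 10 lay between -0.72 and -0.40, so most of these rows were abundant transcripts with a modest relative difference.

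Over the 1711 rows at least 2-fold higher with TopHat2, the transcript mappings gave counts close to those of TopHat2 and the other genome mappings gave counts close to those of Stampy-G. TopHat2 counted 4.17 ± 0.663 and Stampy-G 0.956 ± 0.152 per 100 read pairs (SD, n = 12), a contrast that the choice of rows fixed. The 4 other tables were not used in the choice, although they come from the same reads. Bowtie2-G counted 0.935 ± 0.145 and GSNAP 1.06 ± 0.167 (SD, n = 12), close to Stampy-G. Bowtie2 counted 3.99 ± 0.682 and Stampy 4.40 ± 0.748 (SD, n = 12), close to TopHat2. The median levels of these rows fell into the same 2 sets, although the order within a set differed, at 0.139 CPM with Stampy-G, 0.0939 with Bowtie2-G and 0.0512 with GSNAP, and 2.41 with TopHat2, 2.71 with Bowtie2 and 3.84 with Stampy.

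Over the 1576 rows at least 2-fold higher with Stampy-G, no other table came as high. Stampy-G counted 4.79 ± 1.17 and TopHat2 1.51 ± 0.211 per 100 read pairs (SD, n = 12), again fixed by the choice. Stampy counted 3.10 ± 1.52, Bowtie2-G 3.09 ± 1.01, Bowtie2 2.21 ± 1.25 and GSNAP 1.10 ± 0.232 (SD, n = 12 each). Animal 11 carried much of the spread, with 8.26 for Stampy-G, 7.80 for Stampy, 6.18 for Bowtie2-G and 6.06 for Bowtie2. The row with the largest Stampy-G excess made up 65.0% of that animal's Stampy-G counts in these rows, beside a mean of 18.04% (6.88% to 29.7%) in the 11 others. Without animal 11 the means were 4.47 ± 0.440 for Stampy-G, 1.503 ± 0.219 for TopHat2, 2.81 ± 0.279 for Bowtie2-G, 2.68 ± 0.383 for Stampy, 1.86 ± 0.320 for Bowtie2 and 1.04 ± 0.111 for GSNAP (SD, n = 11). By the median row, Stampy on transcripts came close to Stampy-G, at 1.34 beside 1.46 CPM, and the levels were 0.716 with Bowtie2, 0.554 with Bowtie2-G, 0.270 with TopHat2 and 0.249 with GSNAP.

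**Figure D3:**
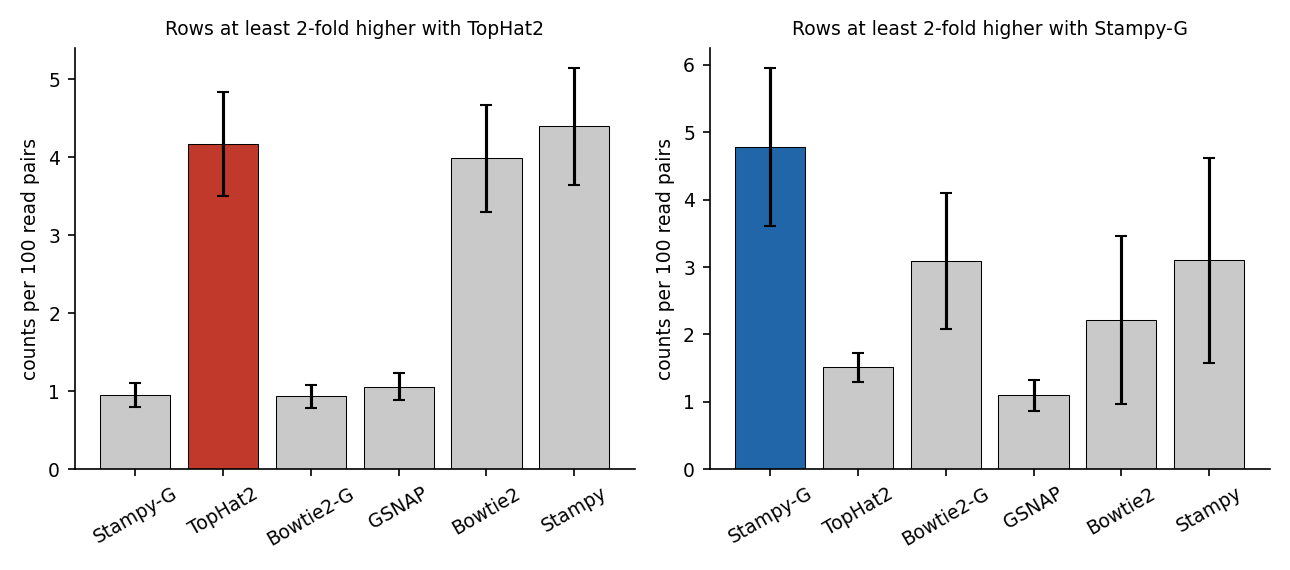
Counts per 100 read pairs with all 6 mappings, as mean ± SD over 12 animals, in the rows at least 2-fold higher with TopHat2 (left) and at least 2-fold higher with Stampy-G (right). The coloured bar is the method that the rows were chosen for. On the left, Bowtie2 at 3.99 and Stampy at 4.40 stand near TopHat2 at 4.17, and on the right the nearest bars to Stampy-G at 4.79 are Stampy at 3.10 and Bowtie2-G at 3.09.

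Bowtie2-G offers a common point for both methods, since it is unspliced like Stampy-G and uses the aligner that TopHat2 is built on. The same stricter call was applied against it, and because the comparisons share columns with the first, their values are given side by side only. TopHat2 was higher than Bowtie2-G in 2515 rows (20.0%). This took in 1690 (98.8%) of the rows higher with TopHat2 than with Stampy-G, 31 (1.97%) of the rows higher with Stampy-G and 794 (8.54%) of the others. Stampy-G was higher than Bowtie2-G in 1845 rows (14.7%), which took in 153 (8.94%) of the rows higher with TopHat2, 1021 (64.8%) of the rows higher with Stampy-G and 671 (7.22%) of the others. TopHat2 was lower than Bowtie2-G in 569 rows (4.52%), and 550 of these were rows higher with Stampy-G (34.9% of them). Stampy-G was lower than Bowtie2-G in 44 rows (0.35%), 32 of which were rows higher with TopHat2.

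Against Bowtie2-G, the rows higher with TopHat2 had mostly 1 pattern, and those higher with Stampy-G had several. The choice of rows partly fixed this. Stampy-G was itself above Bowtie2-G by a median log2 fold change of 0.434 over all rows and 0.384 over the rows higher with TopHat2. A row chosen for lying well above Stampy-G was therefore mostly above Bowtie2-G as well, and the rows higher with Stampy-G had no such constraint. Of the 1711 rows higher with TopHat2, 1513 (88.4%) were higher with TopHat2 than with Bowtie2-G while Stampy-G was not called against Bowtie2-G, and in 153 both methods were above Bowtie2-G. Of the 1576 rows higher with Stampy-G, 773 (49.1%) were higher with Stampy-G than with Bowtie2-G while TopHat2 was not called. A further 329 (20.9%) were lower with TopHat2 than with Bowtie2-G while Stampy-G was not called, so that in these rows the tolerant mapping was not called above an unspliced mapping of lower tolerance. In 217 (13.8%) Stampy-G was above and TopHat2 below Bowtie2-G, and in 222 (14.1%) neither was called. NR rows made up 194 (25.1%) of the 773 rows and 162 (49.2%) of the 329.

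Levels in the other tables differed between these patterns. In the 773 rows where Stampy-G alone was above Bowtie2-G, the median level was 1.12 CPM with Stampy-G and 0.321 with Bowtie2-G, and it was 1.28 with Stampy and 0.551 with Bowtie2 on the transcripts. In the 329 rows where TopHat2 alone was below Bowtie2-G, the medians were 2.77 with Stampy-G, 2.18 with Bowtie2-G and 0.302 with TopHat2, and 1.90 with Stampy and 1.45 with Bowtie2. Both sets had a higher median with Stampy than with Bowtie2 on the transcripts. The same order was present over all rows compared, at 5.31 CPM with Stampy and 3.799 with Bowtie2, so it was not particular to these sets. GSNAP had medians of 0.147 in the 773 rows and 0.863 in the 329 rows.

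Bowtie2-G was also compared with Bowtie2, which has another reference, and with GSNAP, a different aligner that splices. Bowtie2 on the transcripts was higher than Bowtie2-G in 2712 rows (21.6%), which held 1548 (90.5%) of the rows higher with TopHat2, 349 (22.1%) of the rows higher with Stampy-G and 815 (8.77%) of the others. It was lower in 556 rows (4.42%), which held 323 (20.5%) of the rows higher with Stampy-G. GSNAP was higher than Bowtie2-G in only 84 rows (0.668%), of which 51 were among the rows higher with TopHat2 (2.98% of them). GSNAP was lower than Bowtie2-G in 1554 rows (12.3%), among them 743 (47.1%) of the rows higher with Stampy-G and 131 (7.66%) of those higher with TopHat2. The rows higher with TopHat2 were therefore, for the most part, called higher with Bowtie2 on transcripts and not called higher with GSNAP. GSNAP was also below Bowtie2-G in general, with a median log2 fold change of -0.47 over all rows. The part of splicing in these patterns was not tested.

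Non-coding rows differed more often than coding rows, in both directions. Of 1514 NR rows, 512 (33.82%) were at least 2-fold higher with TopHat2 and 462 (30.52%) with Stampy-G, beside 13.6% and 12.5% of all rows. Of 11069 NM rows, the counts were 1199 (10.8%) and 1114 (10.1%). The medians of the log2 fold change were close, at -0.20 for NR and -0.15 for NM rows, but the quartiles of NR rows were far wider, at -1.41 and 2.59 beside -0.43 and 0.11.

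NR rows had lower counts than NM rows, and the shares were therefore also taken within ranges of the mean count over both tables. At 5 to 30 counts, 16.2% of 2466 NM rows and 33.0% of 688 NR rows were higher with TopHat2, and 22.6% and 31.5% were higher with Stampy-G. At 100 to 300 counts the shares were 10.2% of 2002 NM rows and 31.4% of 210 NR rows for TopHat2, and 7.09% and 35.7% for Stampy-G. At 300 to 1000 counts they were 5.18% of 2201 and 11.9% of 109 rows for TopHat2, and 3.73% and 39.5% for Stampy-G. The share of NM rows called fell from 30 to 100 counts up to 1000 to 10000 counts, whereas that of NR rows higher with Stampy-G did not. At 1000 to 10000 counts, 14 of 39 NR rows (35.9%) and 48 of 1944 NM rows (2.47%) were higher with Stampy-G. Rows of 10000 counts or more were few, and 16 of 190 NM rows were higher with TopHat2 and 5 with Stampy-G.

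**Figure D4:**
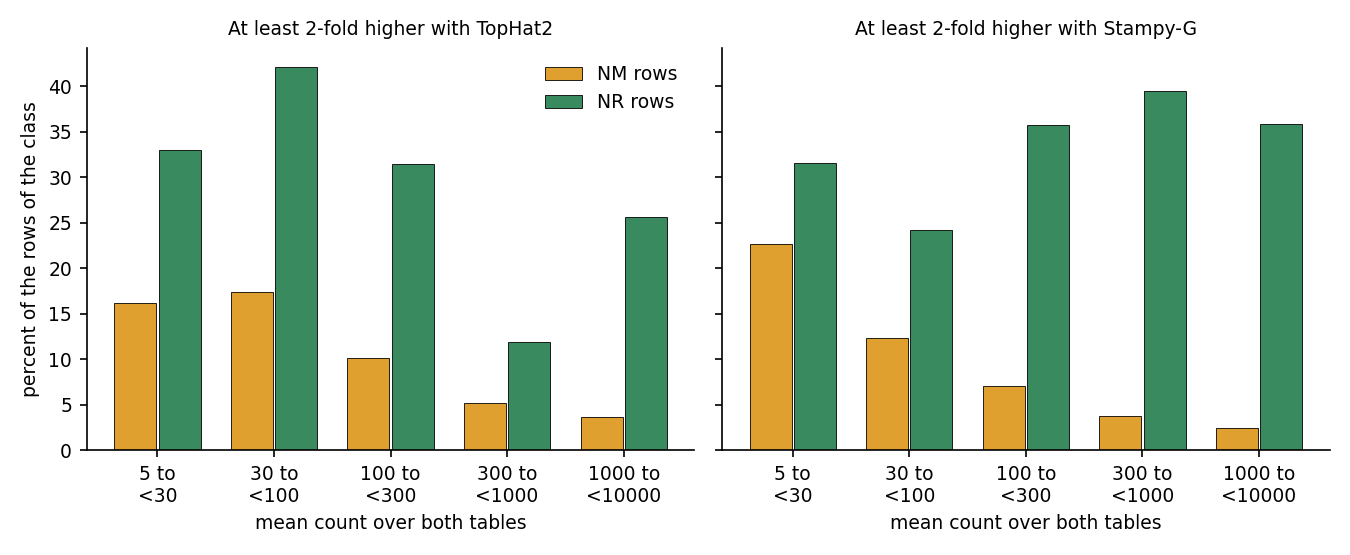
Percent of NM and NR rows that were at least 2-fold higher with TopHat2 (left) or with Stampy-G (right), by mean count over both tables. In each of the 5 ranges the NR bar is above the NM bar in both panels, and NM bars from 300 to 10000 counts stay at or under 5.18%.

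Some transcripts were counted with 1 method only. Rows with 5 or more counts in all 12 animals with TopHat2 and under 5 in every animal with Stampy-G numbered 525 (4.17%), 314 NM and 211 NR, with mean TopHat2 counts of 10.0 to 2116 (median 50.7) and 118 rows at 100 or more. In the opposite direction there were 210 rows (1.67%), 152 NM and 58 NR, with mean Stampy-G counts of 10.0 to 4424 (median 24.4) and 27 rows at 100 or more. Stampy-G had no count in any animal in 33 of the 525 rows, and TopHat2 in 31 of the 210. Against a floor of 3 counts over the 12 animals, the folds of these rows had lower bounds of 41.3 to 976 (median 103) for TopHat2 and 40.0 to 2720 (median 103) for Stampy-G, which cover counting error only.

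The TopHat2 rows of this kind were shared with the transcript mappings. Of the 525, 485 (92.4%) had 5 or more counts in all animals with Bowtie2 and 480 (91.4%) with Stampy, against 4 with GSNAP and 1 with Bowtie2-G. Under 5 counts in every animal were found in 443 of them with Bowtie2-G and 471 with GSNAP, but in 17 with Bowtie2 and 18 with Stampy. The 210 Stampy-G rows were spread more evenly, with 120 (57.1%) at 5 or more counts in all animals with Stampy, 72 (34.3%) with Bowtie2, 69 (32.9%) with Bowtie2-G and 36 (17.1%) with GSNAP. Counts with a single mapping out of the 6 were rare, as 14 rows (12 NM and 2 NR) had them with TopHat2 and 4 rows (2 NM and 2 NR) with Stampy-G.

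The row NM_006013 had the largest fitted fold of those higher with TopHat2, among rows with a mean of 100 or more in 1 method. It had 0 to 2 counts per animal with Stampy-G (median 0.5) and 1290 to 3257 with TopHat2 (median 2155), with no overlap. Summed over the animals this was 8 counts against 25392, a ratio of 3174 (95% exact interval 1611 to 7353, for counting error only), and the fitted log2 fold change was 11.38 ± 0.068 (SE, n = 12; edgeR adjusted p = 4.3e-20). Bowtie2-G gave 0 in every animal and GSNAP 14 to 41 (median 24.5). On the transcripts, Bowtie2 gave 653 to 1449 (median 1052.5) and Stampy 664 to 1468 (median 1072), so their highest animals were within the TopHat2 range and their lowest under it.

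NM_014764 was counted with TopHat2 alone. It had 196 to 323 counts per animal with it (median 237.5, total 2927) and 0 in all 12 animals with each of the 5 other mappings, including Bowtie2 and Stampy on the transcripts. The fold over Stampy-G was at least 976, from the floor of 3 counts over the 12 animals (edgeR adjusted p = 0.00017). The 12 animals lay close together, with an SD of 39.3 around a mean of 243.9 counts.

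NR_002454_1, a row with an added number, was the reverse. Stampy-G gave 484 to 1178 counts per animal (median 639.5, total 8161) and TopHat2 gave 0 in all 12, at least 2720-fold lower from the same floor (edgeR adjusted p = 5.8e-05). Bowtie2-G gave 301 to 722 (median 404), Bowtie2 248 to 551 (median 302) and Stampy 262 to 616 (median 326.5), whereas GSNAP gave 0 or 1. The row was thus counted by each unspliced mapping and had at most 1 count per animal with the spliced ones. The accession has another row with no added number, which had 2197 to 5106 counts with Stampy-G (median 2753.5) and 2556 to 5795 with TopHat2 (median 3125.5). The sum of both rows differed little, at 3676 ± 941 with Stampy-G and 3339 ± 881 with TopHat2 (SD, n = 12), a log2 fold change of -0.14 (edgeR adjusted p = 2.3e-07), although 18.5% of the counts were on the added-number row with Stampy-G and none with TopHat2. With Stampy this share was 58.1% and with Bowtie2 26.5%.

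NM_001636_1 had the same form at higher counts. Stampy-G gave 3002 to 6462 counts per animal (median 4310, total 53084) and TopHat2 0 to 3 (median 0.5, total 11), a ratio of 4826 (95% exact interval 2697 to 9668, for counting error only) and a log2 fold change of -12.05 ± 0.062 (SE, n = 12; edgeR adjusted p = 8.8e-21). Its partner row NM_001636 was near equal to it with Stampy-G, at 3036 to 6474 (median 4388.5), and had 7084 to 14209 with TopHat2 (median 10558.5). Of the counts of the accession, the added-number row held 49.4% with Stampy-G, 50.2% with Bowtie2-G, 50.1% with Bowtie2 and 51.2% with Stampy, but 0.0087% with TopHat2 and 0.0012% with GSNAP. Summed over both rows TopHat2 was the higher, at 10546 ± 2025 counts beside 8960 ± 1986 with Stampy-G (SD, n = 12), a log2 fold change of 0.24 (edgeR adjusted p = 1e-08). The direction for the accession was therefore opposite to that of its added-number row.

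**Figure D5:**
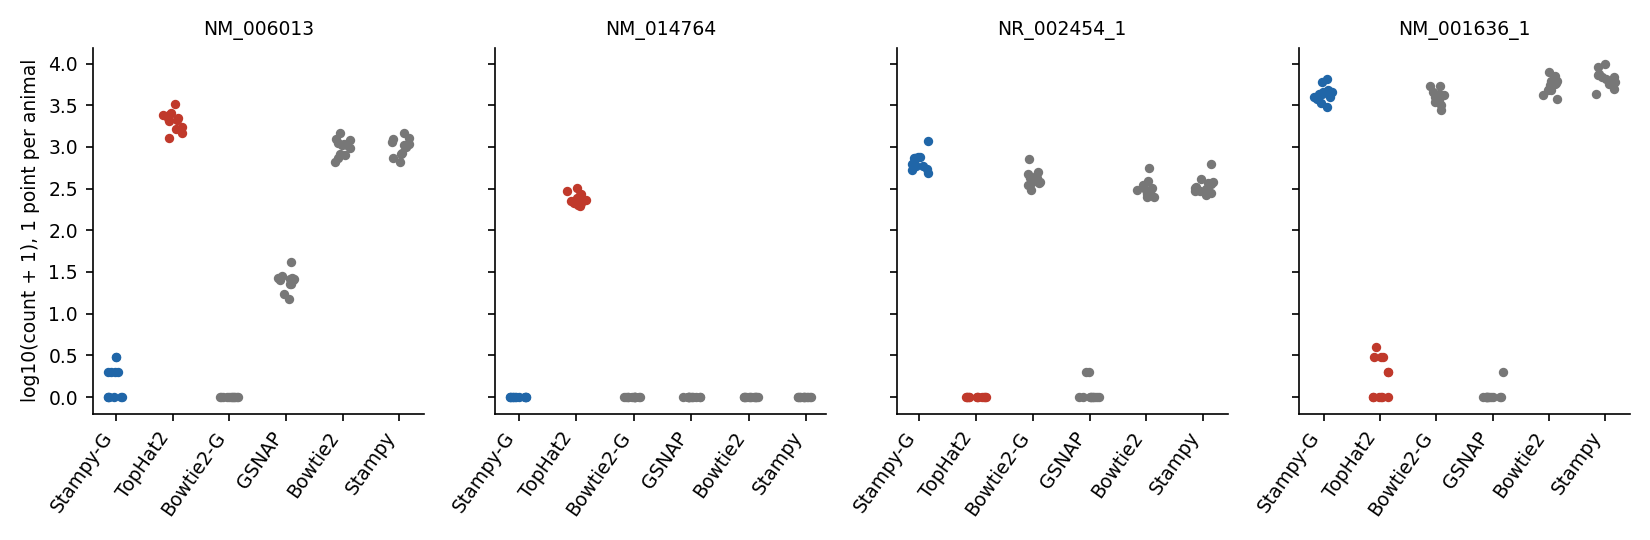
Counts of 4 rows with all 6 mappings, as log10 of count plus 1, with 1 point per animal (n = 12). NM_006013 and NM_014764 are high with TopHat2 and at 0 to 2 counts with Stampy-G, and NR_002454_1 and NM_001636_1 are high with the 4 unspliced mappings and at 0 to 3 counts with TopHat2 and GSNAP.

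Such splitting of an accession over its rows was common. Of the 54 accessions with several rows and at least 1 row compared, 49 had 2 rows. In 30 of them both methods had 10 or more counts in the sum. The highest row held a median of 55.6% of these counts with Stampy-G (50.1% to 100%) and 99.9% with TopHat2 (64.9% to 100%). It held under 60% in 17 accessions with Stampy-G and in 0 with TopHat2, and 99% or more in 6 and 20. The share was higher with TopHat2 in 26 of 30 accessions, lower in 3 and equal in 1, and the highest row was the same row with both methods in 18.

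Rows of such accessions were called often, and the accessions were also called often with their rows summed. The part of the splitting in these calls was not tested. Of 87 rows compared, 30 were at least 2-fold higher with TopHat2 and 41 with Stampy-G, together 81.6% beside 26.1% of all rows. When the rows of an accession were summed, 14 of the 54 accessions were higher with TopHat2 and 21 with Stampy-G, 64.8%, with a median log2 fold change of -0.37. Summing all accessions in this way left 1696 of 12554 (13.5%) higher with TopHat2 and 1559 (12.4%) higher with Stampy-G, so these accessions were a small part of all calls. Added-number rows that were the only row of their accession numbered 96, of which 3 were higher with TopHat2 and 23 with Stampy-G. Over all 142 added-number rows, 14 (9.86%) were higher with TopHat2 and 51 (35.9%) with Stampy-G.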

How the data were processed

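Blood RNA of 12 baboons at baseline was sequenced. The submitters' processing notes and the paper's methods give trimming with Trimmomatic 0.25, mapping to hg19 at default settings (TopHat2 2.0.7, Bowtie2 2.0.6, GSNAP and Stampy), and counting of primary alignments with htseq-count (HTSeq 0.5.4, intersection-nonempty mode). The authors deposited raw counts per transcript row, whole numbers with no normalization. The strand setting, the treatment of duplicates and the meaning of the added number are not given in the sources used here. Without strand, reads of a transcript and its antisense partner cannot be told apart, and rows of near-identical copies can share reads.

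Columns were matched to animals by number. Library size was the number of read pairs after quality control in the paper, the same for both columns of an animal. Rows with a mean of 10 counts or more in either table were tested with edgeR 4.0.16 (glmQLFit, glmQLFTest; R 4.3.3), with the animal as a block because both columns hold the same reads, and Benjamini-Hochberg adjustment. Standard errors are approximate, taken as the fold change on the log2 scale over the root of its F value, and do not include the Poisson bound that edgeR puts on p. P-values reflect how evenly a difference between mappings repeats over animals, but not that alone. They also depend on counting depth, on the Poisson bound and on how the fit treats rows at 0 with 1 method. For NM_014764, at 0 in all animals with Stampy-G, the edgeR adjusted p was 0.00017, and 1.7e-17 in the fit without the block. Counted shares were tested by exact paired permutation. DESeq2 1.42.0, other scalings, filters, folds, the fit without the block and leaving out each animal were tried as alternatives. Summing the rows of an accession, requiring the minimum in both tables, lifting the Poisson bound, and comparing Bowtie2 with Bowtie2-G were added after seeing the data. Python 3.11.15, numpy 2.4.6, pandas 2.3.3, scipy 1.17.1 and matplotlib 3.10.9 were used, and the test was run on simulated data.

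The rule for named rows took the largest fitted folds with an adjusted p under 0.05, a mean of 100 counts or more in 1 method and the same direction in 12 of 12 animals. Because accessions are not paired with names, 2 are printed per direction. The 10 rows with the largest excess in each direction appear by rank. The rows, lists and rules were chosen with earlier results of these data known.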

Additional observations from a re-analysis of the deposited data

How the results depend on the processing

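The counted share difference kept its direction under every alternative, and so did the 4 named rows wherever they were fitted as rows. For the named rows this was fixed by their choice, since they were taken for the largest folds. With the rows of an accession summed, the log2 fold change was 0.24 for NM_001636, opposite to its added-number row. For NR_002454 it was -0.14. The fit without the replicate block took 3307 rows as higher with Stampy-G, against 7080. A fold minimum of 1.5 gave 2493 rows higher with Stampy-G and a minimum of 4 gave 792, against 1576. Testing only the 7245 rows with a mean of 100 or more gave 1779 rows higher with TopHat2 and 4640 higher with Stampy-G, of which 748 and 536 were at least 2-fold. A minimum in both tables left 684 and 765 of 10350 rows at least 2-fold higher. The other counts of calls were within 1.5 times the value reported, DESeq2 included (1720 and 1591 rows at least 2-fold higher with TopHat2 and Stampy-G). Without the Poisson bound on p, which was tried after seeing the data, 3625 rows were higher with TopHat2 and 8120 with Stampy-G, and the numbers at least 2-fold higher were again 1711 and 1576. The counted share difference fell to 1.24 per 100 read pairs, from 3.55, without the 10 rows with the highest mean count. Leaving out each animal in turn gave 1706 to 1721 and 1569 to 1593 such rows, and a counted share difference of 3.36 to 3.67 per 100 read pairs. Rows were not summed over gene symbols, since no symbols were at hand. Counts under about 10 per animal limit the rows counted with 1 method, as do paralogs whose reads the counting could split.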
